A study of Drosophila melanogaster with 3 samples.

Results

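Peaks at divergent coding promoters are sites where the tagged protein was recovered between, or close to, the start sites of 2 protein-coding genes that are transcribed away from each other. A peak of the authors' optimal list was taken as a member when its summit lay within 500 bp of a coding transcription start site (TSS) on the plus strand and of a coding TSS of another gene on the minus strand. The rule used positions only, and 737 of 3392 optimal peaks met it, or 21.7% (Wilson 95% interval 20.4 to 23.1). A further 1257 peaks (37.1%) had coding TSSs of 1 gene or of 1 direction within 500 bp and are called one-direction promoter peaks, and the other 1398 (41.2%) had no coding TSS that near.

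The series holds 1 group, chromatin from whole mixed-sex Drosophila melanogaster embryos collected over the window of 0 to 24 h, in 3 biological replicates. All embryos came from 1 transgenic line that stably carries Dad with GFP at its C terminus, and the immunoprecipitation used an antibody to GFP on sonicated chromatin with fragments of 200 to 800 bp. An untagged or untreated group is not analysed here, and the embryos mix all cell types and stages of that window. Each replicate and the pooled alignments have a list of 30000 regions that includes background, and the optimal list holds the peaks that passed the authors' irreproducible discovery rate (IDR) test; read depth is unknown. Positions are those of genome build dm6.

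Dad, named Daughters against dpp, belongs to the inhibitory Smads. It binds the activated BMP receptor, holds back phosphorylation of the receptor-regulated Smad, Mad, and is itself a target gene of the ligand Dpp. Head-to-head gene pairs are common in the compact fly genome, and many of them are housekeeping genes whose start regions carry the DNA replication-related element (DRE) or other motifs of broadly active promoters. BEAF-32, an insulator protein that recognises clusters of CGATA, and Dref, the factor that binds the DRE, are both known at such promoters. The question asked here was how often, how strongly and where between the paired genes the signal lay, and at which genes.

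The stretches that carry 4 of the strongest of these peaks are shown first, since each is the whole space between a pair of start sites with the summit inside it. They are the plus strand of dm6, from RefSeq's sequence of that assembly, and run from the base after the minus-strand gene's TSS to the base before the plus-strand gene's TSS; none overlaps an annotated exon. Capitals mark CGATA or its complement TATCG (the unit bound by BEAF-32), with the DRE TATCGATA where the 2 overlap, and the E-box CAGCTG.
Art3/mRpS10 gap, chr3R:15229409-15229664: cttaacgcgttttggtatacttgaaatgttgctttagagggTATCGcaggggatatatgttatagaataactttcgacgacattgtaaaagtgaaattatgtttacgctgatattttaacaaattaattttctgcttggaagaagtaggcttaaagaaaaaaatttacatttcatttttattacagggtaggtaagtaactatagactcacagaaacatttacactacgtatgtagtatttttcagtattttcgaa
Atat/Shc gap, chr3L:9426759-9427009: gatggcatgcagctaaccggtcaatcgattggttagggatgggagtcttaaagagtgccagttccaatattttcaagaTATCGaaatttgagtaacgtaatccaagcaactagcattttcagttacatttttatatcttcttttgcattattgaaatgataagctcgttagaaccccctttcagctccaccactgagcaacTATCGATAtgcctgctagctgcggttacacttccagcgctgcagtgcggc
CG3437/CG3552 gap, chr3L:9457670-9457911: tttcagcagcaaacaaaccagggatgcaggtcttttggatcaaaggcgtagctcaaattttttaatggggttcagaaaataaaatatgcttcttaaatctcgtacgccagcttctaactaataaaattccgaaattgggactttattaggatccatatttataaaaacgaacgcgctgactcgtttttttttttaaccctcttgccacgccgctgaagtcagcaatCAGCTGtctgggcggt
RpS27/Nup37 gap, chr3R:25247515-25247657: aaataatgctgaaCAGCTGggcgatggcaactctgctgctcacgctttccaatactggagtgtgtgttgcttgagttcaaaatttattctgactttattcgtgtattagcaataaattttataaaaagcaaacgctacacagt

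The Art3/mRpS10 gap of 256 bases joins an arginine methyltransferase gene and a gene of the small mitochondrial ribosomal subunit. It held 1 BEAF-32 unit, its GC content was 30.1%, and the summit was at base 107, counted from its left end. The Atat/Shc gap of 251 bases, between a tubulin acetyltransferase gene and the gene of a receptor tyrosine kinase adaptor, held a full DRE and 3 BEAF-32 units, with the summit at base 125. The CG3437/CG3552 gap of 242 bases had 1 E-box and no BEAF-32 unit, with the summit at base 155. The RpS27/Nup37 gap, between genes of the small cytoplasmic ribosomal subunit and of the nuclear pore, is the shortest at 143 bases. It also held 1 E-box and no BEAF-32 unit, and its summit was 6 bases from the RpS27 end. The 4 thus share no single one of these motifs.

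The highest signal among the 737 members was between Chro and Ssl1 (3L, 22878701 to 22879137). Chro encodes Chromator, a chromodomain protein of polytene interbands and the spindle matrix, and Ssl1 a subunit of the general transcription factor TFIIH. The authors' signal there was 1284, and the signal relative to the median over optimal peaks was 10.5, 8.61 and 10.3 in replicates 1, 2 and 3 (mean 9.80 ± 1.04, SD, n = 3). The TSSs are 105 bp apart and the summit was not between them: it lay 90 bp inside the 5′ UTR of Chro. Art3/mRpS10 followed (signal 952.3), with relative signals of 6.54, 7.09 and 8.29. At mRpS23/CenG1A (2L, 13835292 to 13835632, signal 910.9), a mitochondrial ribosomal protein gene and an Arf GTPase-activating protein gene 492 bp apart, they were 7.46, 7.17 and 6.57. Each of these 3 peaks was at least 6.54 times the median peak in every replicate, and none of the replicates was the highest in all 3.

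Among the 25 members of highest signal, the mean relative signal ran from 3.70 to 9.80, and all 25 were overlapped by the top regions of every replicate. Top regions are a replicate's 3392 strongest, which equals the number of optimal peaks. The 25 were picked by a signal that comes from these same replicates, so such overlap was nearly built in. The coefficient of variation between replicates had a median of 12.1% in these 25, within a range of 3.37% to 30.6%. Over the members with a value in each replicate, most of them weaker, the median was 23.8%. One-direction promoter peaks of equal strength were not set beside the 25. Replicate 2 was the lowest of the 3 in 13 of the 25. The summit lay between the TSSs in 17 of the 25, beside 603 of all 737 members (81.8%). The plot of relative signal for these peaks shows each replicate.

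**Figure D1:**
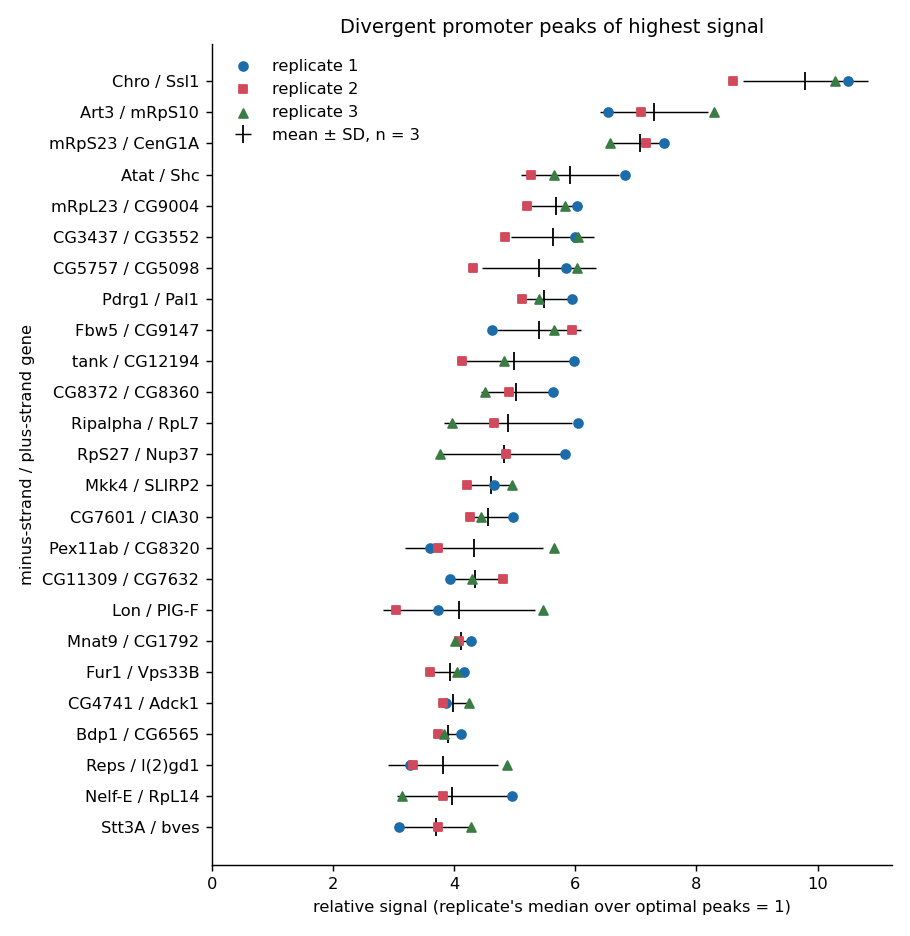
Relative signal (horizontal axis; 1 is the replicate's median optimal peak) of the 25 divergent promoter peaks of highest signal, named by the nearest minus-strand and plus-strand gene. Symbols are the 3 replicates and the vertical tick with its line is the mean ± SD; Chro/Ssl1 stands at 9.80 and the means of all 25 are at or above 3.70.

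Several of the 25 were at genes of the translation or transcription apparatus. Ripalpha/RpL7 (2L, 10200880 to 10201165, signal 628.1) pairs a gene for an importer of replication protein A with a large-subunit ribosomal protein gene over 30 bp. Its relative signals were 6.05, 4.65 and 3.96. RpS27/Nup37 (3R, 25247389 to 25247673, signal 613.5) had relative signals of 5.83, 4.86 and 3.77, and Nelf-E/RpL14 (3L, 8600821 to 8601099, signal 499.2), whose first gene encodes a subunit of the factor that pauses RNA polymerase II, had 4.95, 3.81 and 3.14. At all 3 ribosomal protein pairs replicate 1 was the highest and replicate 3 the lowest. Bdp1/CG6565 (signal 512.4) holds the gene of a TFIIIB subunit of RNA polymerase III, with a relative signal of 3.89 ± 0.198 (SD, n = 3).

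Lon/PIG-F (signal 531.3, relative signal 4.08 ± 1.25) pairs the mitochondrial Lon protease with an enzyme of GPI anchor synthesis. CG7601/CIA30 (signal 586.0, 4.56 ± 0.368) holds the gene of a complex I assembly factor, and Pex11ab/CG8320 (signal 573.5, 4.33 ± 1.14) that of a peroxisome division protein. Fur1/Vps33B (3R, 25473056 to 25473396, signal 515.2, 3.93 ± 0.290) pairs a furin protease, of the family that cleaves BMP precursors, with a vesicle tethering protein. Reps/l(2)gd1 (signal 501.9, 3.82 ± 0.909) holds lethal (2) giant discs, a regulator of endosomal sorting of receptors. Mkk4/SLIRP2 (signal 598.1, 4.60 ± 0.374) holds a kinase of the JNK pathway, and Stt3A/bves (signal 483.3, 3.70 ± 0.589) the catalytic subunit of oligosaccharyltransferase. Atat/Shc (signal 772.4) had relative signals of 6.82, 5.27 and 5.65. The remaining members of the 25 were mRpL23/CG9004, CG3437/CG3552, CG5757/CG5098, Pdrg1/Pal1, Fbw5/CG9147, tank/CG12194, CG8372/CG8360, CG11309/CG7632, Mnat9/CG1792 and CG4741/Adck1, with signals of 513.1 to 739.2. CG4741/Adck1 (2R, 24611438 to 24611733) is the only one of the 25 whose 5′ ends overlap, with the minus-strand TSS 141 bp past the plus-strand TSS.

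Over all members, the median signal was 128.4, with quartiles of 100.1 and 190.4 and extremes of 80.7 and 1284. One-direction promoter peaks had a median of 119.6 and the other optimal peaks 120.2. Median width was 410 bp in each of the 3 kinds. Members were 23.2%, 23.9%, 21.7% and 18.0% of the optimal peaks in 4 classes of 848 peaks by signal, strongest first.

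The replicates differed on whether divergent promoter peaks are the stronger kind. The median relative signal was 1.12, 0.970 and 1.11 at divergent promoter peaks in replicates 1, 2 and 3, against 1.00, 1.02 and 0.945 at one-direction promoter peaks. The differences were 0.125, -0.0552 and 0.161, a mean of 0.0767 ± 0.116 (SD, n = 3; exact two-sided sign-flip permutation test, p = 0.5). With 3 replicates the smallest p this test can give is 0.25. In the stronger 1696 optimal peaks the mean difference turned to -0.00271. Replicate 2 was lower than both others at 338 members (45.9%), and at 379 (30.2%) of the one-direction promoter peaks.

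GC content also differed between the 2 kinds. Within 100 bp of the summit it averaged 37.7% at divergent promoter peaks and 40.4% at one-direction ones. With the optimal peaks split into 3 classes of GC content, a split chosen after the data were seen, the difference in relative signal in the lowest class was -0.00845, -0.086 and -0.0176 in replicates 1, 2 and 3. In the middle class it was 0.201, -0.0606 and 0.134, and in the highest class 0.145, -0.0479 and 0.117. Replicate 2 was below 0 in each class, and its sign differed from that of the others in the upper 2 classes; the part of GC content in the result was not tested beyond these values.

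Replicate support had the same split. The top regions of replicates 1, 2 and 3 overlapped 86.4%, 74.8% and 88.6% of divergent promoter peaks and 81.9%, 80.8% and 77.5% of one-direction promoter peaks. The mean difference was 3.21 ± 8.67 percentage points (SD, n = 3; exact two-sided sign-flip permutation test, p = 0.75), and without replicate 3 it was -0.747. All 3 replicates supported 450 of the 737 members, or 61.1% (Wilson 95% interval 57.5 to 64.5). The same held for 710 of 1257 one-direction promoter peaks, or 56.5% (53.7 to 59.2), and over all optimal peaks the share was 57%. Of the other members, 207 were supported by 2 replicates, 77 by 1 and 3 by none. Support followed signal: it was 98.98%, 81.3%, 38.6% and 12.4% in the members of these 4 signal classes, strongest first, against 99.04%, 86.0%, 37.6% and 7.51% at one-direction promoter peaks. The optimal list was made from these replicates, so a high overlap is built in and only the differences are informative.

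**Figure D2:**
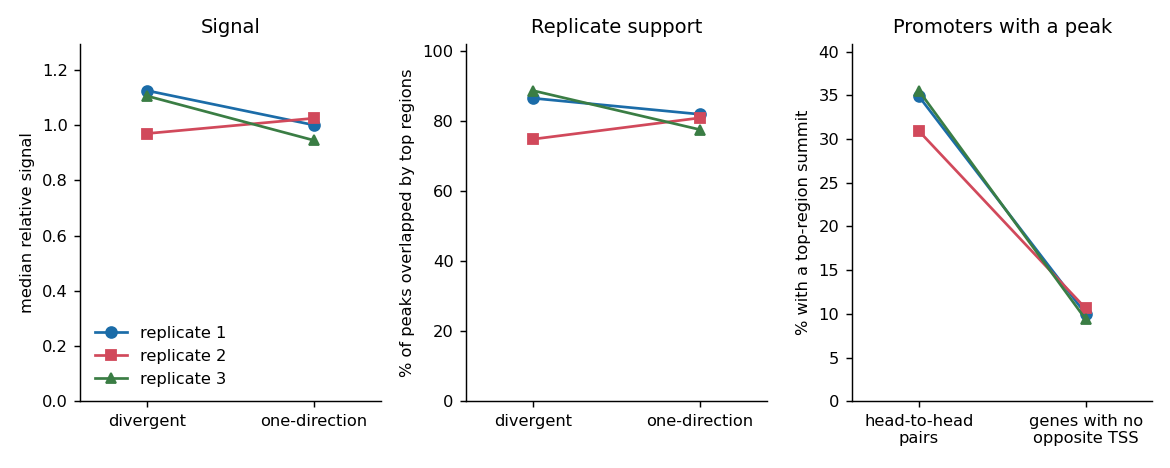
Median relative signal (left), share of peaks overlapped by a replicate's top regions (middle) and share of annotated promoters with a top-region summit (right), 1 line per replicate. Replicate 2 crosses the others in the first 2 panels, at 0.970 against 1.02 and 74.8% against 80.8%, while all 3 replicates fall between 30.9% and 35.5% for head-to-head pairs and between 9.38% and 10.6% for genes with no opposite TSS.

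Summits at divergent promoters were commoner among strong regions than among weak ones in each replicate. They made up 21.7%, 18.6% and 22.7% of the top regions in replicates 1, 2 and 3 and 3.87%, 5.09% and 4.84% of the remaining regions. The mean difference was 16.4 ± 2.47 percentage points (SD, n = 3; exact two-sided sign-flip permutation test, p = 0.25, the smallest it can give). One-direction promoters were likewise commoner, by 15.9 ± 3.09 points (p = 0.25, same exact test). In the pooled list, 1110 of the 25850 regions that overlap no optimal peak had a summit at a divergent promoter, or 4.29%.

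Annotated head-to-head pairs had a peak more often than genes that stand alone. Of 1995 pairs with TSSs 0 to 500 bp apart, 708 had an optimal summit within 500 bp of both TSSs, or 35.5% (Wilson 95% interval 33.4 to 37.6). Of 8804 coding genes with no coding TSS of the other strand within 1000 bp, 891 had a summit within 500 bp, or 10.1% (9.51 to 10.8). In the top regions of replicates 1, 2 and 3 the shares were 34.9%, 30.9% and 35.5% for pairs and 9.995%, 10.6% and 9.38% for the genes that stand alone. The 2 ranges did not overlap, and the mean difference was 23.8 ± 3.08 percentage points (SD, n = 3; exact two-sided sign-flip permutation test, p = 0.25). A pair offers 2 start sites and a lone gene may have 1, so the 2 kinds of unit differ in what can be hit.

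The share of pairs with a peak differed with the distance between the paired TSSs. It was 31.5% at 0 to 99 bp, 32.4% at 100 to 199 bp, 44.3% (Wilson 95% interval 40.2 to 48.5) at 200 to 299 bp, 38.8% at 300 to 399 bp and 23.2% (18.5 to 28.5) at 400 to 500 bp. In the top regions of replicates 1, 2 and 3 the pairs at 200 to 299 bp were hit in 40.6%, 35.7% and 44.7%, and those at 400 to 500 bp in 22.8% to 25.4%. The distance of 200 to 299 bp had the highest share in each replicate. A hit needs a summit within 500 bp of both TSSs, so the stretch that counts shrinks as the distance grows. How far that rule sets the lower share at 400 to 500 bp was not tested.

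Of the 737 members, 728 lay at nearest TSSs that are head-to-head and 9 at TSSs whose 5′ ends overlap. The head-to-head distance had a median of 273 bp and quartiles of 185.5 and 354.5 bp. The shortest was 2 bp, between dpa, a subunit of the replicative MCM helicase, and didum, an unconventional myosin (signal 229.3, relative signal 1.70 ± 0.242). CG3032/CG4593 (6 bp, signal 103.1) and SerRS/CG17260 (8 bp, signal 244.5), the gene of a seryl-tRNA synthetase, came next. The longest was 955 bp, between Ank2, a neuronal ankyrin, and Mcad, a fatty acid dehydrogenase (signal 107.9, supported by 2 replicates), followed by CG2246/CG31021 at 717 bp and dpr14/spidey at 645 bp. Overlapping 5′ ends were led by Pgk/Bacc, at 268 bp past each other (signal 116.2), where Pgk encodes phosphoglycerate kinase.

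Summits lay between the start sites in 603 of the 737 members, or 81.8% (Wilson 95% interval 78.9 to 84.4). Of the positions that the 500 bp rule allows around the same TSS pairs, 41.3% lie between the TSSs on average. At the 1110 weak pooled regions at divergent promoters the share was 57.2% (54.3 to 60.1), where 40.0% of allowed positions are between. With each replicate's own summits, 80.5%, 74.5% and 80.8% of the top regions at divergent promoters lay between in replicates 1, 2 and 3. The share grew with the distance that the rule offers, from 45.8% of 96 members at 0 to 99 bp to 88.0% of 251 at 200 to 299 bp and 94.7% of 75 at 400 to 499 bp. The allowed positions that lie between grew too, and were 6.55%, 34.5% and 80.8% in these 3 classes.

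The nearer TSS was a median of 62 bp away, and within 100 bp in 559 members (75.8%), whereas at one-direction promoter peaks the nearest TSS was a median of 107 bp away. A rule that asks for 2 TSSs leaves less room for a far summit, so these medians are descriptions. The nearer TSS was on the plus strand in 381 members and on the minus strand in 355, with 1 tie. Of the 603 summits between the TSSs, 314 (52.1%) were in the middle 50% of the gap. By distance between the TSSs, that share was 68.2% of 44 summits at 0 to 99 bp, 60.6% of 66 at 100 to 199 bp, 59.3% of 221 at 200 to 299 bp, 44.7% of 152 at 300 to 399 bp, 28.2% of 71 at 400 to 499 bp and 51.0% of 49 at 500 bp or more. Summits were placed less exactly than such distances: a replicate's own summit was a median of 24, 25 and 21 bp from the optimal one in replicates 1, 2 and 3, and in 82.8% of members the deposited summit is the midpoint of its region.

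**Figure D3:**
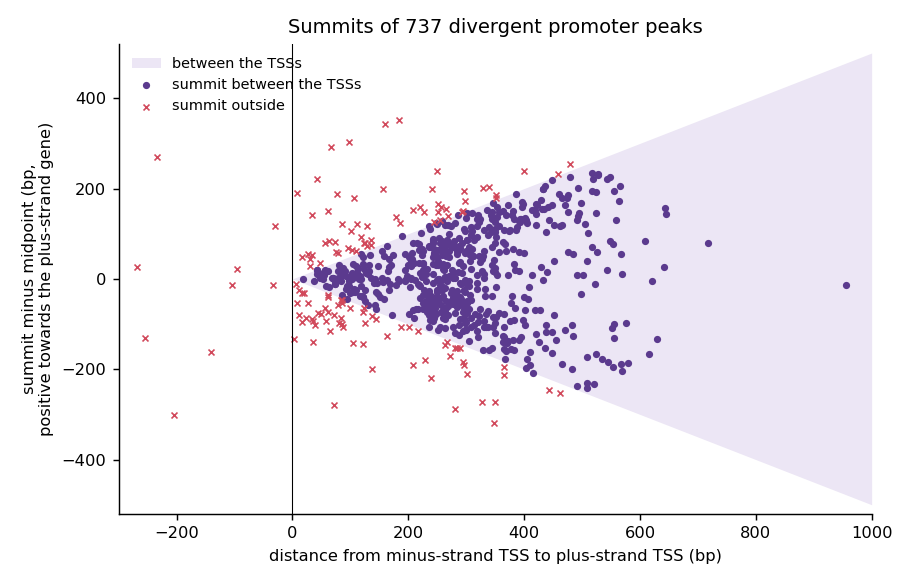
Position of the summit relative to the midpoint of the 2 nearest TSSs (vertical axis, bp) against the distance between these TSSs (horizontal axis, bp; negative where 5′ ends overlap) for the 737 divergent promoter peaks. Dots inside the shaded wedge are the 603 summits between the TSSs and crosses are summits outside; at 400 to 499 bp, 28.2% of the dots are in the middle 50% of the gap, against 52.1% over all distances.

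By annotation, 483 member summits (65.5%) were intergenic, 175 (23.7%) in a 5′ UTR, 69 (9.36%) in an intron, 8 in other exons, 1 in coding sequence and 1 in a 3′ UTR. One-direction promoter peaks were intergenic in 45.9%, in a 5′ UTR in 21.9% and in an intron in 27.2%. A noncoding TSS lay within 500 bp of 15 members (2.04%) and of 85 one-direction promoter peaks (6.76%). By arm, members were 27.6% of the optimal peaks on 3R (222 peaks, Wilson 95% interval 24.7 to 30.8), 23.1% on 3L, 21.9% on 2L, 20.2% on 2R and 14.4% on X (88 peaks, 11.8 to 17.4). The interval of X lay below those of 2L, 3L and 3R and overlapped that of 2R (17.3 to 23.4). Head-to-head pairs were not counted by arm, so these shares do not allow for differences in gene arrangement between arms. Chromosome 4 had 0 members among 11 optimal peaks, which allows a share of up to 25.9% by the same interval.

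The peak at CG15160 and Pde11, a cyclic nucleotide phosphodiesterase gene, was just inside the 500 bp limit, with the farther TSS 499 bp away and a signal of 110.4. Nepl19/Nepl20 (signal 117.5) and Mpc1/CG42613 (signal 167.4) were just outside at 501 bp.

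Some members share their genes. The nearest gene pairs number 694, and 43 pairs hold 2 member summits each, which lie 199 to 261 bp apart with a median of 202 bp. Both summits of a pair can fall in 1 region of a replicate and then share its value. Those of the Brf/sds22 pair, a TFIIIB subunit and a protein phosphatase 1 regulator, were deposited under 1 set of coordinates (3R, 17391325 to 17391641, signals 369.3 and 138.2). In 695 members exactly 2 coding genes were within 500 bp, in 38 there were 3 and in 4 more than 3. One of these 4 (3R, 21365433 to 21365611, signal 319.0, relative signals 2.15, 1.70 and 3.41) meets the rule through 10 annotated pre-mod(mdg4) genes, which supply trans-spliced parts of the chromatin protein gene mod(mdg4), and so is no pair in the usual sense.

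In all, 1434 of 13945 coding genes (10.3%) had a member summit within 500 bp of a TSS, and 2562 (18.4%) had any optimal summit there. Of the genes with a promoter peak, 56.0% had a member peak. The rule asks for more than 1 gene at each member, whereas a one-direction promoter peak may have 1. This share of genes is therefore raised by construction. Counted as peaks, there were 737 members and 1257 one-direction promoter peaks. Of the 1434 genes with a member peak, 1345 were in annotated head-to-head pairs. Across all genes in such pairs, 35.3% had a member peak. The counts in the functional lists below are read beside these shares. The lists were chosen with results of these data known, and no member had both nearest genes in 1 list. A member peak was counted for a listed gene whether that gene's start or its partner's was nearer. A count therefore does not assign the peak to the listed gene.

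Cytoplasmic ribosomal protein genes had the highest share of the 19 lists. A member peak was at 32 of 93 (34.4%, Wilson 95% interval 25.5 to 44.5), and at 31 of the 37 that are in head-to-head pairs (83.8%). The share was 10.3% over all coding genes and 35.3% over all genes in pairs. Any promoter peak was at 67 of the 93 (72.0%), beside 18.4% over all coding genes. The median authors' signal of these 32 peaks was 210.6, within a range of 84.1 to 628.1, beside 128.4 over all members, and 29 of the 32 were supported by every replicate. Their median relative signal was 2.18, 1.79 and 1.43 in replicates 1, 2 and 3, and replicate 1 was above replicate 3 at 23 of the 32 (71.9%), beside 375 of the 737 members (50.9%). RpL7, RpS27 and RpL14, described above, were the 3 strongest. Mitochondrial ribosomal protein genes numbered 21 of 75 (28.0%; 38.9% of the 54 in pairs), led by mRpS10, mRpS23 and mRpL23 (relative signals 6.02, 5.21 and 5.82). Their median signal was 122.1, so the 3 leading peaks, at 739.2 and above, stand far over the rest of that list, whose next peak, mRpL32, had 253.9.

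Lists for other steps of protein synthesis and turnover and for energy metabolism had shares of 15.9% to 21.9%, beside 10.3% over all coding genes. Within head-to-head pairs their shares were 38.9% for initiation factors, 35.0% for aminoacyl-tRNA synthetases, 29.2% for the proteasome, 35.9% for oxidative phosphorylation and 46.2% for the vacuolar ATPase, beside 35.3% over all genes in pairs. Of 44 translation initiation factor genes 7 had a member peak (15.9%), with eIF1 opposite RpL28 (signal 247.6, relative signal 1.95 ± 0.508), eIF3h (signal 247.0) and the cap-binding repressor eIF4EHP (signal 201.7) the strongest. Among 32 aminoacyl-tRNA synthetase genes there were 7 (21.9%), led by SerRS, IleRS (signal 213.5) and ArgRS. Proteasome subunit genes had 8 of 48 (16.7%), with Rpn5 at 247.3, Rpn3 at 197.2 and Rpn13 at 155.6. Of 85 oxidative phosphorylation genes 14 (16.5%) had one, with the complex I subunit genes ND-ASHI (signal 272.6) and ND-MWFE (231.9) and the cytochrome oxidase gene COX5A (210.9) leading. Vacuolar ATPase genes had 6 of 33 (18.2%), all 6 supported by every replicate, with Vha100-2 at 325.4, Vha16-5 at 321.2 and Vha55 at 255.8. These summits were 326, 297 and 23 bp from the TSS of the listed gene, in that order. They were 259, 5 and 179 bp from the TSS of its partner.

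Lists of transcription and RNA genes are given next. Within head-to-head pairs the share was 34.1% for transcription machinery and 33.3% for splicing, beside 35.3% over all genes in pairs. It was 42.9% for nuclear pore genes and 42.9% for Polycomb and Trithorax group genes, with 14 of each in pairs. Transcription machinery genes had 15 of 68 (22.1%), with the Mediator subunits MED30 (signal 352.1, relative signal 2.73 ± 0.198) and MED27 (289.3, 2.21 ± 0.981) and the RNA polymerase subunit Polr2H (326.1, 2.50 ± 0.619) highest. Splicing genes had 8 of 32, all weak: U2af50 (117.6), Sf3a2 (116.8) and SmD3 (101.3) were the strongest, and 1 of the 8 was supported by every replicate. Nuclear pore genes had 6 of 21 (28.6%), with Nup98-96 (224.7) and Nup160 (196.2) after Nup37. Polycomb and Trithorax group genes had 6 of 28 (21.4%), led by brm, the ATPase of the BRM remodelling complex (269.5, 2.03 ± 0.760), Su(z)12 (196.4), a subunit of Polycomb repressive complex 2, and Bap60 (165.7).

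Membrane traffic, cycle and stress genes spanned the range. Rab, Vps and Sec genes had 22 of 77 (28.6%; 55.0% of the 40 in pairs), led by Vps33B, the translocon gene Sec61alpha (245.3) and Vps36 (206.8). Cell cycle genes had 5 of 27 (18.5%, Wilson 95% interval 8.18 to 36.7), with aurA, the Aurora A kinase (164.5), Dp (160.2) and Bub3 (149.4). DNA replication genes had 4 of 27 (14.8%, 5.92 to 32.5), with PCNA2 (156.9), PolE4 (145.7) and Mcm5 (121.6). Heat shock and chaperonin genes had 3 of 35 (8.57%, 2.96 to 22.4), Hsc70-4 (154.8), Hsc70-5 (137.5) and CCT8 (98.7). These 3 intervals include the 10.3% of all coding genes. In head-to-head pairs, a member peak was at 5 of 11 cell cycle, 4 of 15 DNA replication and 2 of 10 heat shock genes. The share over all genes in pairs was 35.3%. Chemoreceptor genes had 1 of 119 (0.840%, Wilson 95% interval 0.148 to 4.61), Gr63a (91.4), part of the carbon dioxide receptor, opposite Lamtor4. The summit there was 259 bp from the Gr63a TSS and 38 bp from that of Lamtor4. Of the 119, 11 are in head-to-head pairs.

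Genes of the BMP pathway had a member peak at 2 of 25 (8%, Wilson 95% interval 2.22 to 24.97), an interval that includes the 10.3% of all coding genes. These were nmo, the Nemo kinase (3L, signal 139.9, relative signals 1.20, 1.33 and 0.807), opposite Pop4, and dlp, a glypican that shapes the Dpp gradient (3L, signal 96.6, relative signals 1.37, 0.518 and 0.698), opposite RecQ5. The dlp peak was above the median peak in replicate 1 and below it in the others. Any promoter peak was at 7 of the 25 (28%), beside 18.4% over all coding genes. Of the 25, 9 are in head-to-head pairs, and 1 of these 9 (11.1%) had a member peak. Over all genes in pairs that share was 35.3%. These counts are small and were not tested. None of 26 listed Dpp target genes had a member peak (Wilson upper limit 12.9%). None of the 26 is in a head-to-head pair, so the rule could hardly reach them. Some promoter peak was at 7 of the 26 (26.9%), beside 18.4% over all coding genes.

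Genes of factors that bind insulators and broadly active promoters had 5 of 18 (27.8%, Wilson interval 12.5 to 50.9). The share over all coding genes was 10.3%. Beside 35.3% over all genes in pairs, a member peak was at 5 of the 8 listed genes in pairs (62.5%). Besides Chro these were Cp190 (3R, signal 240.9, relative signals 1.57, 1.77 and 2.35), a cofactor of insulator proteins, Dref opposite RpL13 (2L, signal 225.4, relative signals 1.80, 1.97 and 1.70), pzg (3L, signal 192.6, relative signals 1.86, 0.970 and 1.70), whose product Z4 is a partner of Chromator, and M1BP, which binds Motif 1 (3R, signal 113.2, relative signals 0.789, 0.676 and 0.991). Dref varied least between replicates of the 5, and the M1BP peak was below the median peak in every one. The summit was nearer the listed gene's TSS at Chro, Cp190 and Dref. It was nearer the partner's at pzg (13 bp against 150 bp) and at M1BP (65 bp against 328 bp). The counts of this list are small and were not tested.

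**Figure D4:**
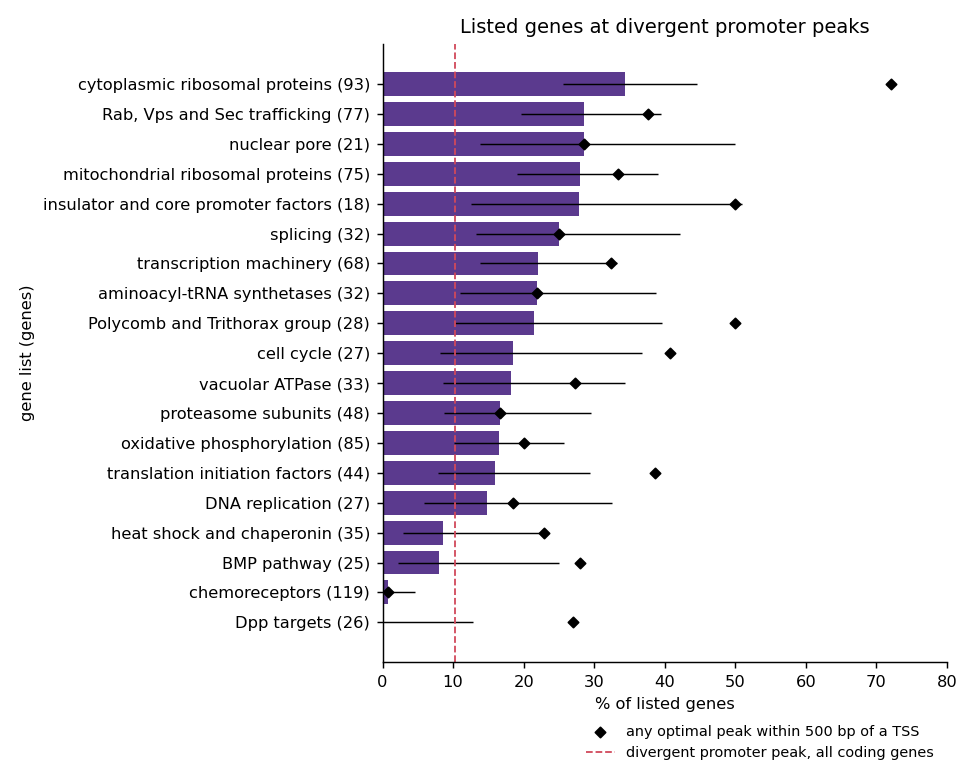
Share of the genes of 19 lists (vertical axis, number of genes in brackets) with a divergent promoter peak within 500 bp of a TSS (bars, with 95% Wilson intervals; horizontal axis in %) and with any optimal peak there (diamonds). The dashed line is the share over all coding genes, 10.3%; cytoplasmic ribosomal protein genes have the longest bar, 34.4%, and Dpp targets none.

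The sequence at member summits differed from that at one-direction promoter peaks in several promoter motifs. A search of both strands within 100 bp of the summit found TCGATA, the core shared by the DRE and BEAF-32 sites, in 264 members, or 35.8% (Wilson 95% interval 32.4 to 39.3), against 23.4% (21.1 to 25.8) of one-direction promoter peaks, 8.58% of the other optimal peaks and 20.2% of windows at all coding TSSs. The full DRE TATCGATA, which contains that core, was at 14.4% of members and 8.59% of one-direction promoter peaks, and CGATA, contained in both, at 52.6% and 39.7%. In the top regions of each replicate, TCGATA was at 34.7%, 33.4% and 31.6% of those at divergent promoters in replicates 1, 2 and 3 and at 23.7%, 22.1% and 19.5% of those at one-direction promoters, a mean difference of 11.4 ± 0.522 percentage points (SD, n = 3; exact two-sided sign-flip permutation test, p = 0.25). All replicates had the same sign and the ranges did not overlap. Motif 7 (CANCCCTA) was at 5.83% of members and 3.26% of one-direction promoter peaks, the E-box CAGCTG at 18.2% and 13.8%, and TATAAA at 31.5% and 23.6%. In a window of 50 bp the difference was 6.15 points for TCGATA, 8.47 for CGATA and 1.03 for CAGCTG, in place of 12.4, 12.9 and 4.42 within 100 bp. Motif 7 and TATAAA were not run at that window.

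The GAGA factor, Initiator and Mad/Medea motifs were found at a smaller share of members. GAGAG, a site of the GAGA factor, was at 15.2% of members and 26.6% of one-direction promoter peaks, with a mean difference over replicates of -14.3 ± 3.23 points (SD, n = 3; exact two-sided sign-flip permutation test, p = 0.25). Within 50 and 250 bp of the summit the difference was -7.51 and -20.3 points. TCAGTT, the start site Initiator, was at 10.3% and 14.7%. GCCGNC, to which Mad and Medea bind, was at 14.8% of members and 18.4% of one-direction promoter peaks, and at 30.7% of the pooled regions outside optimal peaks, whose GC content was 46.2% against 37.7% at members. The short Smad site GTCTG was at 18.5% of members and 20.5% of one-direction promoter peaks. The palindrome GTCTAGAC was at 0 of 737 members, which allows a share of up to 0.519% (Wilson 95% interval). Base composition differs between these sets, and its part in the motif shares was not tested.

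The DRE and BEAF-32 motifs were about as frequent at head-to-head pairs without a peak as at those with one. Some other motifs were less frequent at pairs with a peak, and some were more frequent there. In windows of 100 bp to either side of the midpoint of annotated pairs, TCGATA was at 31.8% of the 708 pairs with an optimal peak and at 30.5% of the 1198 pairs without an optimal summit near either TSS. TATCGATA was at 11.2% of each, CGATA at 45.8% with and 47.6% without a peak, GAGAG at 15.5% with and 13.8% without. The Initiator was at 10.03% of pairs with a peak and 15.9% of those without, TATAAA at 36.7% with and 41.1% without, GATAAG at 11.2% with and 14.7% without, the Motif 1 core GGTCACACT at 4.10% with and 6.59% without, and the CLAMP repeat GAGAGAGA at 0.565% with and 2.59% without. GCCGNC was at 10.2% with and 11.8% without, and Motif 6 (GGTATTTT) at 4.38% with and 5.34% without. The rare CAGGTAG, AGGTGGCGC and GTCTAGAC were also less frequent with a peak. Like GAGAG, 4 further motifs were more frequent with a peak. They were GTCTG (15.4% with and 13.0% without), CACGTG (3.67% and 2.50%), CAGCTG (15.1% and 14.8%) and Motif 7 (4.24% and 3.92%). These shares carry no replicate error and were not tested. GC content was 34.3% with and 34.2% without a peak. Within the members, those with TCGATA had a lower median signal (116.6) than those without (134.4), and the same held for CGATA (120.8 and 134.6) and GAGAG (113.3 and 130.9). Lower too were members with TATCGATA (121.3 and 130.5), Motif 1 (105.6 and 130.7), GATAAG (115.9 and 130.9) and the CLAMP repeat (101.3 and 128.9). The median signal was higher in members with TATAAA (136.1) than in those without (124.1). Likewise it was higher for CAGCTG (133.6 and 126.2), Motif 7 (134.1 and 127.1) and the Initiator (131.5 and 127.4). Only 39 members had Motif 1 and 4 the CLAMP repeat. These medians carry no replicate error and were not tested. The plot of motif shares sets the 2 kinds of peak beside all coding TSSs.

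**Figure D5:**
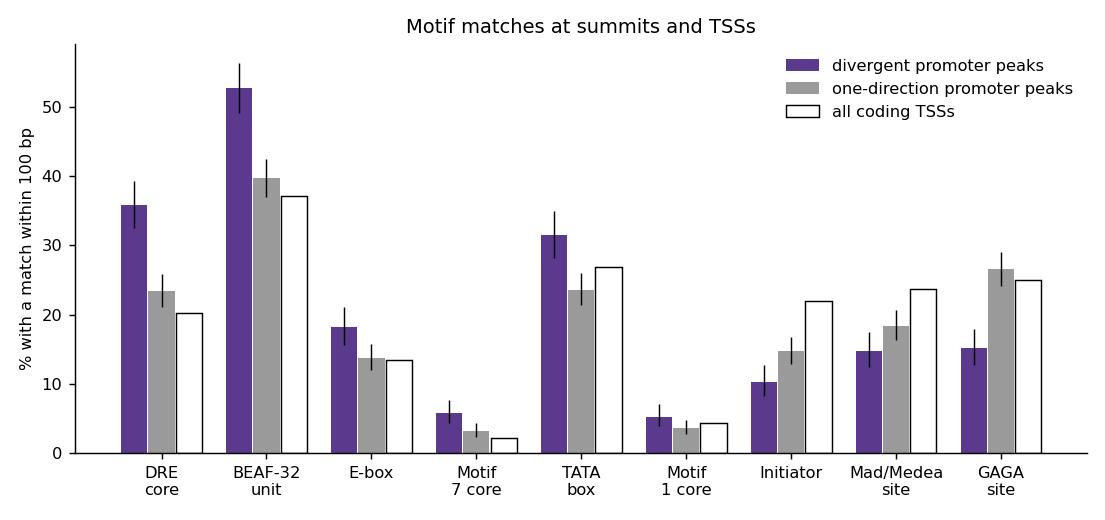
Share of windows with a match to each of 9 motifs within 100 bp (vertical axis, %), for the 737 divergent promoter peaks, the 1257 one-direction promoter peaks (both at their summits, with 95% Wilson intervals) and all coding TSSs. Divergent promoter peaks are above one-direction ones for the DRE core (35.8% and 23.4%) and the BEAF-32 unit (52.6% and 39.7%) and below them for the GAGA site (15.2% and 26.6%).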

How the data were processed

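Per the labels, anti-GFP ChIP was sequenced from 3 biological replicates of 1 Dad-GFP line. Per the file listings, 30000 regions were called by the authors per replicate and on the pooled alignments, against a control alignment, on dm6 and dm3, and derived the optimal IDR list; the sources used here name no aligner, caller, version or threshold, and the control and the dm3 lists are not analysed here. The deposited signal is the caller's value per region and is not scaled between libraries, so replicates were compared after division by their median over the optimal peaks, which is called relative signal. The deposited −log10 q is at its ceiling in the optimal list and was not used. The deposited summit offset is a distance from the region's start in bp; where it passed the region's end, the last base was taken. No file gives read counts, so depth is unknown, and Wilson intervals cover counting error only.

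Coding TSSs (19252 positions of 13945 genes on the 6 arms) came from the Ensembl BDGP6 gene models, the same assembly as dm6, and sequence from RefSeq. A replicate's value at a peak is its highest overlapping region (1 bp or more). Regions and genes are not replicates: tests are exact sign-flip permutations over the 3 replicates, whose smallest two-sided p is 0.25. Code was checked on simulated data; Python 3.11.15, numpy 2.4.6, pandas 2.3.3 and scipy 1.17.1 were used.

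The members, the 19 gene lists and the 18 motifs were chosen with earlier results of these data known. Genes named are the nearest plus-strand and minus-strand genes of the 25 strongest members, list genes with a member peak (all for the BMP, Dpp target and insulator lists, up to 3 of the others), and the extremes of TSS distance and of the 500 bp limit; those of shared or crowded peaks were named after their values were seen. Sequences are 4 of the strongest members outside a chromosome arm not used for sequence. Their TSSs are 40 to 300 bp apart with the summit between. Of the members within these limits, mRpL23/CG9004 was passed over after an annotated exon was found in its gap. Fbw5/CG9147 (2L, signal 697.3, TSSs 134 bp apart) also met the limits and ranks above RpS27/Nup37, but is not printed. The 4 are therefore not strictly the first by signal. Alternatives were TSS windows of 250 and 1000 bp, gene 5′ ends only, the stronger 1696 peaks, 6000 top regions, 50% reciprocal overlap, other sequence windows, 3 classes of GC content and leaving out each replicate. Of the listed symbols, 2 had no match.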

Additional observations from a re-analysis of the deposited data

How the results depend on the processing

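The share of optimal peaks at divergent promoters was 13.7% and 27.8% with TSS windows of 250 and 1000 bp, 20.2% with gene 5′ ends only, 23.6% in the stronger 1696 peaks and 22.7% to 25.2% in the lists left without 1 replicate. The difference from one-direction promoter peaks in signal had no stable sign. In the stronger peaks the difference in relative signal was -0.00271, in the list's median signal -3.89, in mean support -0.915 percentage points and in support by every replicate -2.66. In the lowest of 3 GC classes the difference in relative signal was -0.0374. Without 1 replicate it was 0.0347 to 0.143 and mean support differed by -0.747 to 7.84 points, below 0 without replicate 3, while support by every remaining replicate differed by -1.51 to 12.4 points. The difference in the list's median signal was 8.79 as reported, 16.8 with the 250 bp window and -4.28 to 6.62 in the shorter lists without 1 replicate, below 0 without replicate 2. Causes were not tested. Summits lay between the TSSs in 72.6% with gene 5′ ends only and in 84.7% of the stronger peaks. The share of head-to-head pairs with a peak was 20.9% with the stronger peaks only, 28.2% with pairs up to 1000 bp apart and 24.8% to 28.2% without 1 replicate, where the lists are shorter by construction (2738 to 2888 regions). The excess of pairs over lone genes was 14.9 to 25.5 points as the mean of replicates and 15.8 to 26.1 points in the list over the alternatives run. Each difference was taken within a replicate, so pairing by replicate is part of the tests as reported. Without read counts the effect of depth on these values could not be measured.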
